A study of Mus musculus with 16 samples.

Results

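The enzymes of the methionine cycle were examined in perfused mouse liver, across genotype, methionine supply and RNA fraction. The members were 9 genes, Mat1a, Mat2a, Mat2b, Gnmt, Ahcy, Bhmt, Bhmt2, Mtr and Cbs, taken wherever a probe set of the array was annotated to 1 of them alone. In the annotation used here 8 of the 9 genes had a probe set, 11 probe sets in all, out of 18193 genes and 45101 probe sets on the array. Mat2a was not analysed here. In RefSeq the measured genes lie on chromosomes 14 (Mat1a), 11 (Mat2b), 17 (Gnmt and Cbs), 2 (Ahcy) and 13 (Bhmt, Bhmt2 and Mtr). All 8 measured genes were bright enough to be tested, Mtr only narrowly.

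The cycle turns methionine into S-adenosylmethionine, the methyl donor of most methylation reactions, and recovers methionine from the homocysteine that is left. Liver carries most of the body's methionine breakdown and holds enzymes that other tissues largely lack, among them the products of Mat1a, Gnmt and Bhmt. Cbs takes homocysteine out of the cycle towards cysteine.

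The livers came from mice with the Gcn2 gene intact (+/+, called wild-type here) or lost in all tissues (-/-, knockout), littermates aged 3 to 6 months. Each liver was perfused in a single pass with a complete amino acid medium or with the same medium lacking methionine. RNA was taken from the detergent-treated supernatant of the homogenate (unfractionated RNA) or from polysomes, the gradient fractions that hold mRNAs loaded with several ribosomes. Each array carried the pooled RNA of 2 livers, and the 8 groups of genotype, medium and fraction held 2 arrays each. The loss of Gcn2 was not limited to hepatocytes. A group mean rests on 2 pools, and the tests borrow their error from all 8 groups. Like masses of RNA were labelled for every array, so a polysome value is a share of the polysome RNA, not an amount per liver.

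The Gcn2 kinase is switched on by uncharged tRNA and, through eIF2, raises translation of the transcription factor Atf4. Eif2ak4, the gene of Gcn2, was lower in knockout arrays by a log2 difference of -0.84 ± 0.15 (SE, 8 against 8 arrays, limma, adjusted p = 0.0040, and 0.013 with the pool block described below). Whether its probes lie in the deleted part was not tested. Without methionine alone this check did not pass (-0.65, adjusted p = 0.11). Asns, which makes asparagine and is a well known Atf4 target, differed by -3.29 ± 0.14 (adjusted p = 4.7e-10). Methionine omission did not change Asns past the threshold in wild-type liver. It was at 0.27 ± 0.27 in unfractionated RNA (2 against 2 arrays, adjusted p = 0.93) and 0.40 ± 0.27 in polysome RNA (adjusted p = 0.49). Defining hepatocyte markers were present, 6 of the 8 listed being on the array and all 6 at a signal of 80 or more in every array. The 3′ to 5′ signal ratio of Gapdh lay between 0.783 and 0.940 in the 16 arrays and that of actin between 1.24 and 1.50. Replicate arrays correlated at 0.968 to 0.976 across genes.

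The promoter ends of Asns and of the 4 members on which the fraction results turn are shown, because the Asns stretch holds the letters of the composite element that Atf4 binds with its C/EBP partners and the members' windows do not. Each is the 60 bases just before the start used in the RefSeq promoter table, on the minus strand of GRCm38.p6, read 5′ to 3′. Capitals mark TGATGNAAN in Asns and CCAAT or its reverse complement ATTGG in the others.
Asns: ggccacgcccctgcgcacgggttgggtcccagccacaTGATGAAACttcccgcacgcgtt
Mat2b: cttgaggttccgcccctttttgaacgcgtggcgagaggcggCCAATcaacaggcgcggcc
Bhmt: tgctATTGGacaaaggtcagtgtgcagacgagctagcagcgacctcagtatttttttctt
Bhmt2: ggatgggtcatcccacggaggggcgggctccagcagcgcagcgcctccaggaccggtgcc
Cbs: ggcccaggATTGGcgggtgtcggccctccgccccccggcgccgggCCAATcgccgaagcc

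The stretches are chr6:7693210-7693269 for Asns, chr11:40692683-40692742 for Mat2b, chr13:93637759-93637818 for Bhmt, chr13:93674303-93674362 for Bhmt2 and chr17:31637206-31637265 for Cbs. The Mat2b stretch lies within the annotated gene (chr11:40679314-40695203, 2 transcripts), before a start inside it, and the Cbs stretch lies partly within its gene (chr17:31612623-31637233). Both motifs were looked for on both strands of 300 bases, 250 before the start and 50 after it, and they do not overlap one another in the stretches shown. TGATGNAAN was found in 3.95% of the 32851 mouse promoters of that length, in Asns 23 bases before the start, and in 0 of the 7 measured members with a promoter entry (Mat1a has none). CCAAT was found in 37.4% of promoters and in 6 of the 7 members, Bhmt2 being the one without. A match describes these letters only, and its absence says nothing of other windows.

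Mat1a and Mat2b stand at the entry of the cycle. Mat1a encodes the liver's own S-adenosylmethionine synthetase, and its signal ran from 5647 to 11933 in the 16 arrays with a median of 7511. The highest of these was a wild-type polysome array without methionine, and its replicate gave 8164. Mat2b, the regulatory subunit of the synthetase found in most other tissues, had signals from 378 to 761 with a median of 478.0. The signal is an intensity in arbitrary units that depends on the probes, so it ranks arrays for 1 probe set and not genes against each other.

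Gnmt, Ahcy and Cbs use up S-adenosylmethionine and what follows from it. Gnmt, which spends surplus S-adenosylmethionine by methylating glycine, ranged from 13320 to 19156. Ahcy, which splits S-adenosylhomocysteine into adenosine and homocysteine, ranged from 9582 to 14291. Cbs, which joins homocysteine to serine, ranged from 2469 to 5316 in its brighter probe set and from 1308 to 4277 in the other.

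Bhmt, Bhmt2 and Mtr rebuild methionine. Bhmt, which takes the methyl group of betaine, ranged from 14257 to 21596. The brightest probe set of an array reached 18230 to 27569, so Bhmt and Gnmt lay near the upper end of the scale. Bhmt2, a neighbouring relative that prefers S-methylmethionine, ranged from 3086 to 4217 in the brighter of its probe sets and from 1665 to 2889 in the other. Mtr, the cobalamin-dependent methionine synthase, was below 80 in every array with both of its probe sets, between 1.51 and 56.1. Its mean signal stood at the 47.0th percentile of genes, where the lowest 40% were not tested, and its differences below are given without further weight.

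**Figure D1:**
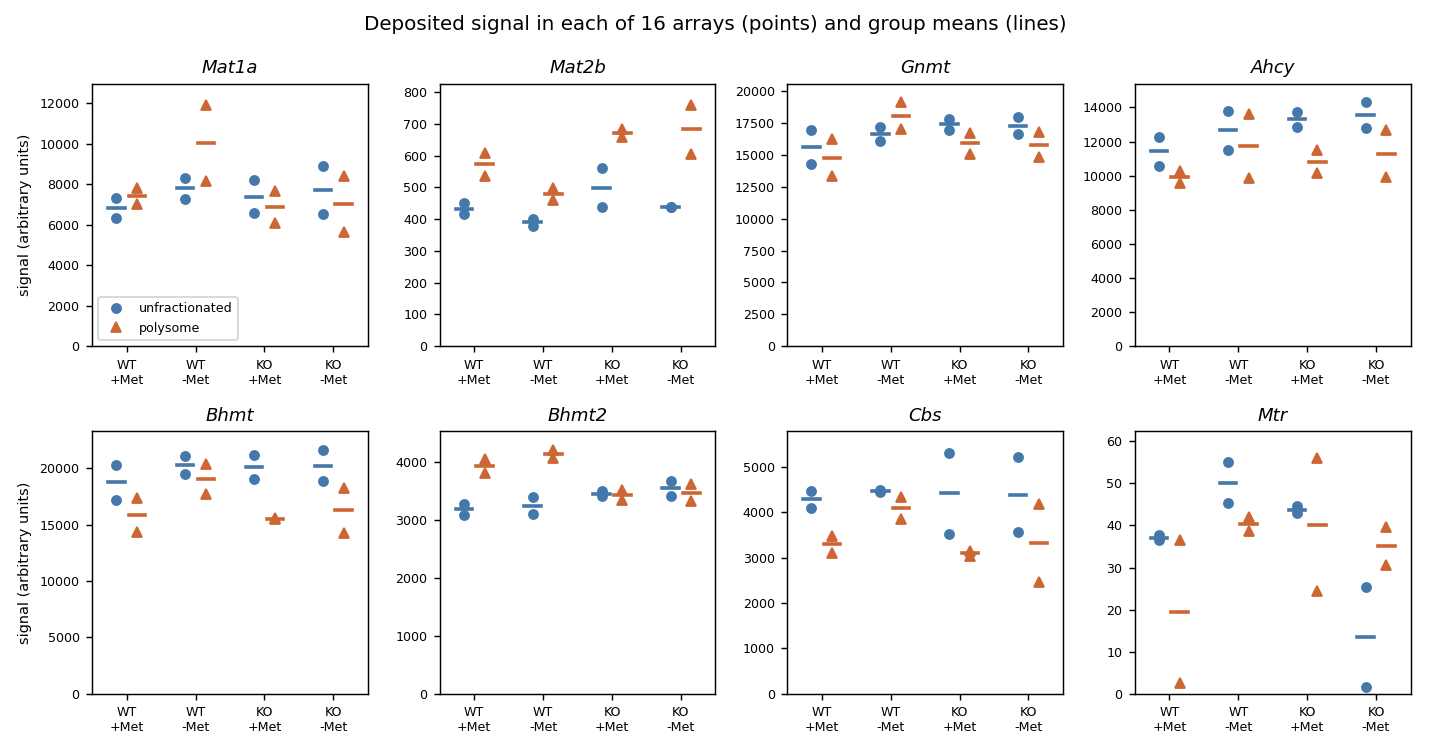
Deposited signal (arbitrary units, linear axis from 0) of the brightest probe set of each member in every array, by genotype (WT, KO) and methionine (+Met, -Met), with circles for unfractionated and triangles for polysome RNA and lines for the mean of 2 arrays. Mat2b triangles lie above the circles of the same genotype, Bhmt2 triangles do so in wild-type liver, and most Bhmt and Cbs triangles lie below the circles.

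The clearest differences among the members were between polysome and unfractionated RNA. Mat2b was higher in polysome RNA, by a log2 difference of 0.43 ± 0.09 (SE, 8 against 8 arrays, limma, adjusted p = 0.0018). Bhmt was lower by -0.26 ± 0.08 (adjusted p = 0.017) and Cbs by -0.35 ± 0.12 (adjusted p = 0.033). These 3 of the 8 members were called in this comparison, where 31.4% of all tested genes were called, so the share of members called is close to that background. Unfractionated and polysome arrays of like genotype, medium and number were also treated as 1 pool, a pairing inferred from these data, not the labels. With this pool block 5 members were called: Mat2b (adjusted p = 0.00039), Bhmt (0.0063), Cbs (0.0094), Ahcy (-0.22 ± 0.07, 0.021) and Bhmt2 (0.15 ± 0.06, 0.047). That fit called 37.8% of all tested genes.

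The Mat2b signal was 415 and 451 in wild-type unfractionated arrays with methionine and 378 and 401 in those without. The matching polysome arrays gave 535 and 610 with methionine and 459 and 497 without. The wild-type fractions did not overlap. In knockout liver the unfractionated signals were 437 and 560 with methionine and 438 and 439 without. The knockout polysome signals were 657 and 683 with methionine and 605 and 761 without, again with no overlap. Array by array the polysome signal was 1.21 to 1.73 times that of the unfractionated array of the same number, higher in 8 of 8 pairs. The difference was 0.52 ± 0.13 in knockout (4 against 4 arrays, adjusted p = 0.0091) and 0.34 ± 0.13 in wild-type (adjusted p = 0.085, and 0.038 with the pool block). The genotypes were not shown to differ in it (0.18 ± 0.18, adjusted p = 0.81).

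Bhmt gave 17207 and 20313 in wild-type unfractionated arrays with methionine and 19503 and 21115 without, against 14362 and 17391 and then 20389 and 17730 in polysome RNA. The wild-type fractions overlapped, 3 polysome arrays lying above the lowest unfractionated one. In knockout the unfractionated signals were 19090 and 21190 with methionine and 18906 and 21596 without, and the polysome signals were 15598 and 15494 and then 18291 and 14257. The knockout fractions did not overlap, and the difference was -0.35 ± 0.11 (adjusted p = 0.033). In wild-type it was -0.17 ± 0.11 (adjusted p = 0.34), with a genotype difference of -0.18 ± 0.15 (adjusted p = 0.78).

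Cbs was lower in polysome RNA in 8 of 8 pairs, at 0.593 to 0.966 times the unfractionated signal. Its wild-type unfractionated signals were 4106 and 4479 with methionine and 4483 and 4450 without, and the polysome signals were 3484 and 3113 and then 4329 and 3843. In knockout it gave 5316 and 3530 with methionine and 5210 and 3558 without, against 3150 and 3045 and then 4195 and 2469 in polysome RNA. Replicates lay at least as far apart as the fractions in 3 of the 4 knockout groups, and neither genotype alone gave a call (wild-type -0.25 ± 0.17, adjusted p = 0.35, knockout -0.45 ± 0.17, adjusted p = 0.071, and 0.024 with the pool block). The second probe set differed by -0.40 ± 0.14 over all arrays.

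Bhmt2 differed between the fractions in wild-type liver, where it was higher in polysome RNA by 0.33 ± 0.09 (4 against 4 arrays, adjusted p = 0.027). It was the only member called in wild-type, 1 of 8, where 15.1% of genes were called. With the pool block Mat2b was added, 2 of 8, where that fit called 21.7% of genes. Wild-type unfractionated arrays gave 3086 and 3280 with methionine and 3103 and 3398 without, and polysome arrays gave 4047 and 3815 and then 4066 and 4217, with no overlap. Knockout arrays gave 3411 and 3497, then 3420 and 3681, in unfractionated RNA. The knockout polysome arrays gave 3511 and 3350, then 3325 and 3616, overlapping the unfractionated ones. The knockout difference was -0.02 ± 0.09 (95% interval -0.22 to 0.18). The dimmer probe set gave 0.42 ± 0.12 in wild-type and 0.04 ± 0.12 in knockout. The difference between the genotypes was -0.35 ± 0.13 in the main probe set and did not pass (adjusted p = 0.42), so the genotypes were not shown to differ. In knockout 2 of the 8 members were called, Mat2b and Bhmt, where 20.3% of genes were called. With the pool block Ahcy (adjusted p = 0.045) and Cbs were added, 4 of 8, where that fit called 27.7% of genes.

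Ahcy had 0.736 to 0.990 times its unfractionated signal in polysome RNA, lower in 8 of 8 pairs, and missed the threshold without the pool block (-0.22 ± 0.09, adjusted p = 0.059). Mat1a (0.05 ± 0.11), Gnmt (-0.06 ± 0.07) and Mtr (-0.06 ± 0.24) were not called. Mat1a was higher in the polysome array of 3 of 4 wild-type pairs, at 0.981 to 1.64 times, and lower in 4 of 4 knockout pairs, at 0.862 to 0.943 times, with a genotype difference of -0.36 ± 0.22 (adjusted p = 0.66).

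**Figure D2:**
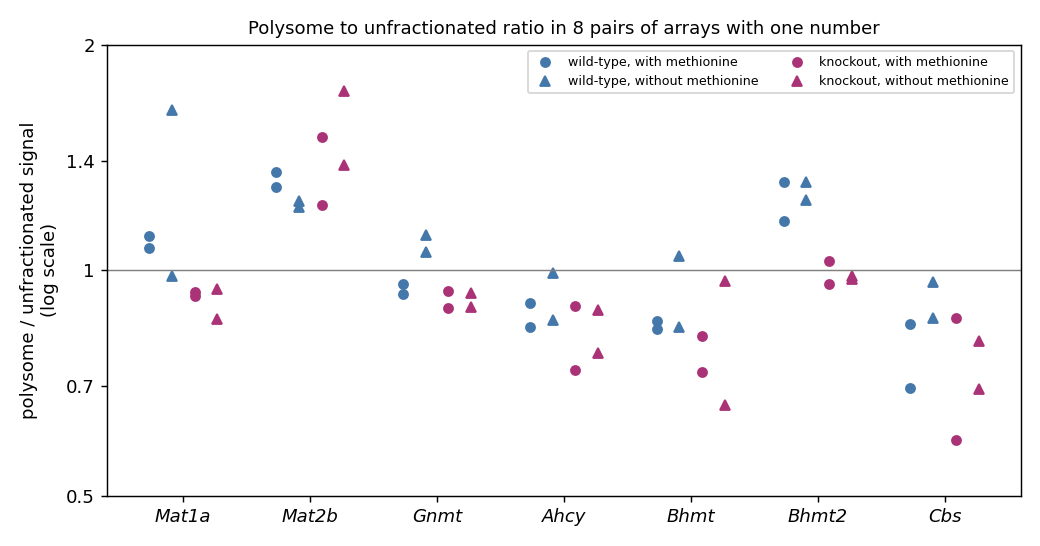
Polysome signal divided by the unfractionated signal of the array with the same group and number (log axis, 8 pairs for each member, colour for genotype and symbol for medium; Mtr is left out because it was below 80 throughout). Mat2b lies above 1 in 8 of 8 pairs, Ahcy and Cbs below 1 in 8 of 8, and Bhmt2 above 1 in 4 of 4 wild-type pairs and 1 of 4 knockout pairs.

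How the arrays are brought to one scale bears on the bright members. The 99th percentile of signal was 5700 to 6459 in unfractionated arrays and 4526 to 5163 in polysome arrays, without overlap, although the deposited values share 1 trimmed mean. Dividing by array medians kept the calls of Mat2b (0.40, adjusted p = 0.025) and Bhmt (-0.28, 0.029) and ended that of Cbs (-0.38, 0.086). It also ended the wild-type call of Bhmt2 (0.23, 0.44) and, in knockout, those of Mat2b (0.56, 0.051) and Bhmt (-0.31, 0.13). Quantile normalization, which makes the bright ends alike, kept Mat2b (0.36, 0.0071) and ended Bhmt (-0.11, 0.14) and Cbs (-0.12, 0.52). It made calls of Mat1a (0.36, 0.016), Gnmt (0.13, 0.047) and Bhmt2 (0.38, 0.00049). The log2 difference of Ahcy became 0.0056 with it, which was not a call. Mat2b was called under all 3 scalings over all arrays, while the direction given for Gnmt and Ahcy holds only without quantile normalization.

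**Figure D3:**
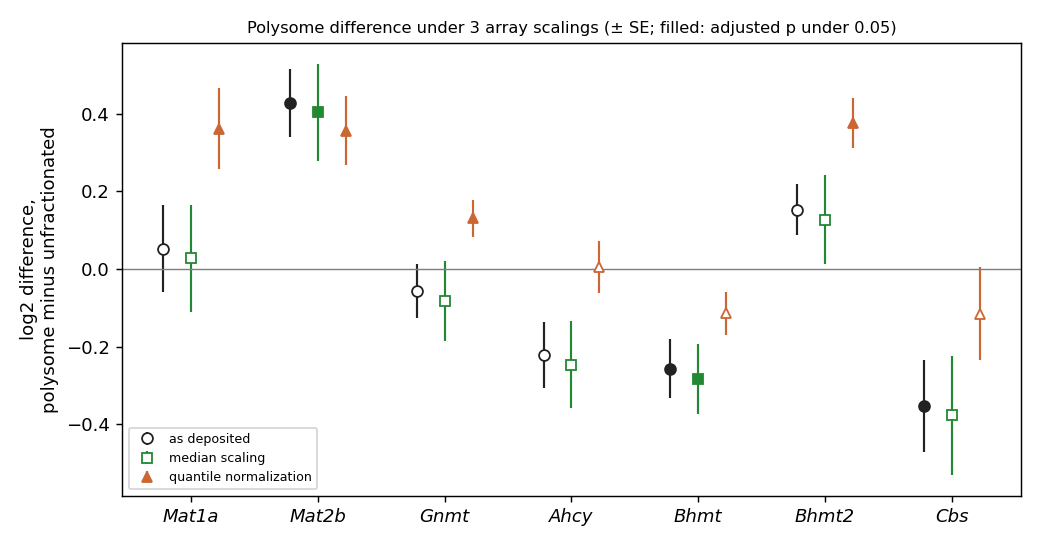
Log2 difference of polysome minus unfractionated signal over all arrays (8 against 8), ± SE, under the deposited scale, median scaling and quantile normalization; filled symbols have an adjusted p under 0.05. Mat2b stays between 0.36 and 0.43, while the brighter members move up under quantile normalization.

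A ratio of 2 members within an array cancels any single factor applied to that array, though not quantile normalization. The ratios below are of deposited signals. The Bhmt2 to Bhmt signal ratio was 15.9% to 18.1% in unfractionated arrays and 18.2% to 28.2% in polysome arrays. The Mat1a to Cbs ratio was 141% to 187% in unfractionated arrays and 199% to 276% in polysome arrays. Neither ratio overlapped between the fractions, the first by a narrow margin. Mat2b to Bhmt (1.90% to 2.64% against 2.25% to 5.34%) and Mat2b to Cbs (8.22% to 15.8% against 10.6% to 30.8%) overlapped. These 4 ratios were picked after their values were seen and carry no test. How many other pairs of genes give ratios without overlap was not counted, and 31.4% of tested genes were called between the fractions.

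Summed marker signals of Kupffer and stellate cells had lower ranges in polysome arrays. Both overlapped between the fractions when the genotypes were pooled, and no test was run. The summed signal of 8 Kupffer cell markers was 1151 to 2416 in unfractionated and 724 to 1362 in polysome arrays, with 5 of the 8 at 80 or more in every array and 1 below 80 in every array. That of 6 stellate cell markers was 813 to 1638 and 475 to 946, with 1 of the 6 at 80 or more throughout and 2 below 80 throughout. The 6 hepatocyte markers summed to 69602 to 80721 and 59723 to 77681. Sinusoidal endothelial cell markers summed to 461 to 575 and 323 to 580, cholangiocyte markers to 109 to 164 and 67.1 to 201. Blood cell markers summed to 64.1 to 245 and 30.0 to 476. Of the cholangiocyte and blood cell markers 0 were at 80 or more throughout. With the genotypes pooled, all of these sums overlapped between the fractions. Within each genotype the Kupffer cell sum was lower in polysome arrays without overlap, by a narrow margin in knockout. The stellate cell sum was lower without overlap in knockout, and its fractions overlapped in wild-type. The ranges by genotype are given next. The Kupffer cell sum also went with genotype, at 2181 to 2416 in wild-type and 1151 to 1646 in knockout unfractionated arrays, without overlap, and at 894 to 1362 and 724 to 1145 in polysome arrays, which overlapped. The stellate cell sum was 813 to 1252 in wild-type and 1075 to 1638 in knockout unfractionated arrays, and 475 to 946 and 767 to 906 in polysome arrays. The part of these shifts in the results was not tested. For the shifts with genotype, fewer cells of a type cannot be told apart from less RNA per cell.

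Omitting methionine changed no member past the threshold in either genotype or fraction. In wild-type polysome RNA, where 2.58% of tested genes were called, 0 of 8 members were. Asns was not called there either, as given above. Mat1a gave 7837 and 7024 with methionine and 11933 and 8164 without, a log2 difference of 0.41 ± 0.22 (2 against 2 arrays, 95% interval -0.06 to 0.89, limma, adjusted p = 0.37). Those arrays did not overlap, yet the 2 replicates without methionine were further apart than the lower of them was from the arrays with methionine. Gnmt differed by 0.29 ± 0.14 (interval -0.0033 to 0.59), Cbs by 0.31 ± 0.24 (-0.20 to 0.81), Bhmt by 0.27 ± 0.15 (-0.06 to 0.59) and Ahcy by 0.22 ± 0.17 (-0.14 to 0.59). Mat2b was the one member with a negative value, -0.25 ± 0.18 (-0.63 to 0.13). The values were thus positive for 7 of 8 members as deposited, but for 2 of 8 with median scaling and 5 of 8 with quantile normalization. The 7 take in Mtr, below 80 in every array, and Bhmt2 at 0.08, whose dimmer probe set gave -0.09. Relative to the median of all genes, which median scaling moved from 0.02 to -0.27, the members' median was 0.26 as deposited, 0.21 with median scaling and 0.03 with quantile normalization.

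In wild-type unfractionated RNA the members lay between -0.15 (Mat2b) and 0.31 (Mtr), 0 of 8 being called against 0.0641% of genes. The other Mtr probe set gave -0.95 ± 0.57 there. In knockout unfractionated RNA 0 members and 0% of genes were called, although 624 genes had an unadjusted p under 0.05. There, leaving Mtr aside, the 7 members lay between -0.17 (Mat2b) and 0.06 (Mat1a). Mtr gave -1.15 ± 0.48 (adjusted p = 0.83) on signals of 44.5 and 43.1 with methionine and 25.4 and 1.51 without. Its other probe set gave -0.38 ± 0.57. In knockout polysome RNA the 7 other members lay between -0.01 (Gnmt) and 0.06 (Cbs), with 0 of 8 called against 0.156% of genes, and with intervals as wide as -0.46 to 0.49 for Mat1a. Over all 16 arrays 0 of 8 members and 2.93% of genes were called, the members lying between -0.14 (Mat2b) and 0.17 (Mat1a).

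Whether the methionine effect differed between genotypes was tested directly. In polysome RNA 0 of 8 members and 0.055% of genes passed, with Mat1a at -0.40 ± 0.32 (adjusted p = 0.72) and Gnmt at -0.30 ± 0.20 (adjusted p = 0.64). In unfractionated RNA 0 of 8 members and 0.0458% of genes passed, and Mtr was at -1.47 ± 0.68 (adjusted p = 0.86). The other Mtr probe set had the opposite sign there (0.58 ± 0.81). For the methionine effect in polysome RNA beyond that in unfractionated RNA, 0 members and 0% of genes were called in either genotype, while 679 genes in wild-type and 421 in knockout had an unadjusted p under 0.05.

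**Figure D4:**
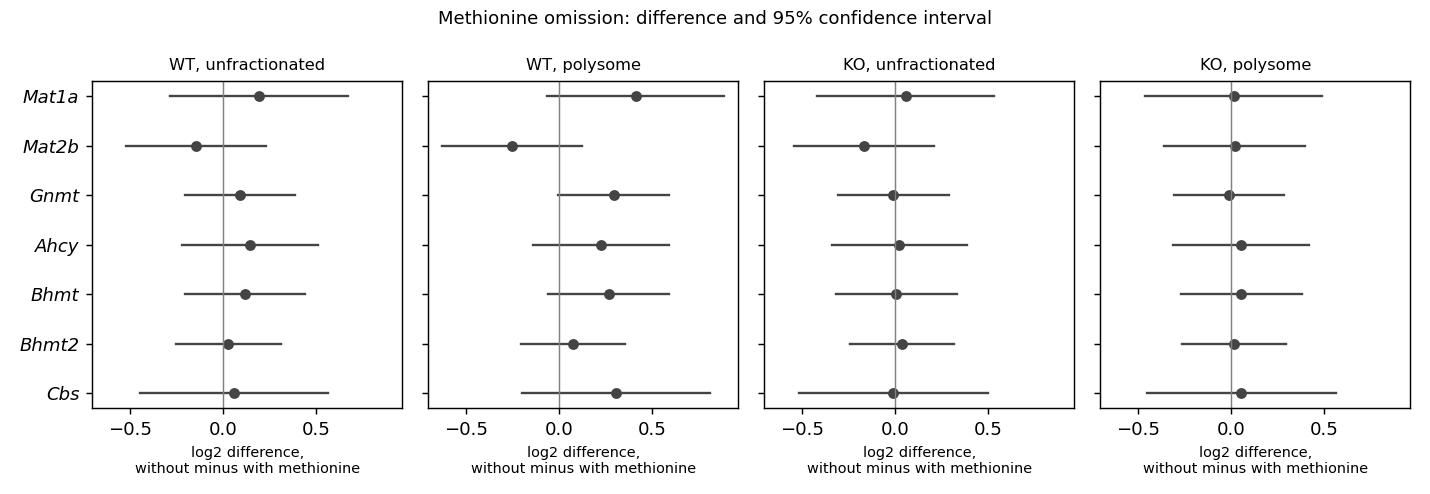
Log2 difference of the signal without minus with methionine (points) and its 95% confidence interval (lines) for the 7 brighter members, in the 4 combinations of genotype and RNA fraction, 2 against 2 arrays each. None has an adjusted p under 0.05, and in knockout polysome RNA the 7 points lie between -0.01 and 0.06.

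The loss of Gcn2 changed no member past the threshold either. Over all arrays 0 of 8 members were called, against 4.2% of genes. Mat2b was at 0.27 ± 0.09 in knockout over wild-type (8 against 8 arrays, interval 0.08 to 0.45, adjusted p = 0.11, and 0.20 with the pool block). Its signals were 378 to 610 in wild-type and 437 to 761 in knockout. The 7 others lay between -0.14 (Mat1a) and 0.10 (Ahcy). With methionine 0 of 8 members and 1.57% of genes were called, and without methionine 0 of 8 and 4.09%. Without methionine Mat2b was at 0.33 ± 0.13 (4 against 4 arrays, adjusted p = 0.17, and 0.28 with the pool block). Mat1a was then at -0.27 ± 0.16 (adjusted p = 0.40, and 0.52 with the pool block). For the genotype difference of the polysome ratio 0 members and 0% of genes were called, while 1017 genes had an unadjusted p under 0.05. Bhmt2 had the lowest adjusted p of the members there (0.42).

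Cbs varied within the knockout groups. The 4 knockout arrays of replicate number 1 gave 3150 to 5316 and the 4 of number 2 gave 2469 to 3558. The log2 gap between replicates was 0.59, 0.55 and 0.76 in 3 of the 4 knockout groups and 0.05 in polysome RNA with methionine, where the median gap over all genes was 0.23 to 0.29 within groups. Mat1a gaps in the knockout ran from 0.33 to 0.57. Within groups, deviations of Cbs went with those of Mat1a (Pearson's r = 0.80) and against those of Mat2b (r = -0.79). These were the highest and the lowest r among all pairs of members. The 2 deviations of a group mirror each other, so each r rests on 8 groups and not on 16 independent arrays. It is a description only, and arrays of the 2 fractions may share pools.

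Genes around the cycle were followed in lists of 42 genes, of which 37 were tested. Between polysome and unfractionated RNA over all arrays 3 were higher and 13 lower, with a median log2 difference of -0.08 where all genes had 0.02, and where 16.6% of genes were called higher and 14.8% lower. Of 12 tested genes that supply methyl groups or support remethylation, 6 were lower and 1 was higher. Pipox, which oxidizes sarcosine and pipecolate, was at -0.60 ± 0.08 (adjusted p = 6.4e-05). Dmgdh, which demethylates dimethylglycine from the Bhmt reaction, was at -0.63 ± 0.11 (adjusted p = 0.00049). Aldh7a1, which oxidizes betaine aldehyde among others, was at -0.55 ± 0.09 (adjusted p = 0.00027, and 0.061 with quantile normalization). Chdh, the choline dehydrogenase that starts betaine synthesis, was higher in wild-type polysome RNA (0.69 ± 0.19, adjusted p = 0.022). That call ended under median scaling (adjusted p = 0.12) and without any 1 of 5 arrays.

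Of 9 tested small-molecule methyltransferases, 4 were lower in polysome RNA and 0 were higher. Coq3, of ubiquinone synthesis, was at -0.62 ± 0.12 (adjusted p = 0.0014). As3mt, which methylates arsenic, was at -0.31 ± 0.10 (adjusted p = 0.020), Hnmt, which methylates histamine, at -0.37 ± 0.12 (0.025) and Tpmt, which methylates thiopurines, at -0.32 ± 0.11 (0.031). Median scaling ended the calls of As3mt and Tpmt, and quantile normalization that of Tpmt. The Tpmt call also ended without any 1 of 10 arrays, that of Hnmt without any 1 of 5 and that of As3mt without any 1 of 4. Of 5 genes listed around adenosine and homocysteine removal, Ahcyl1, included only as a relative of Ahcy, was higher (0.34 ± 0.07, adjusted p = 0.0027, and 0.074 with median scaling). Cth, which splits cystathionine after Cbs, was lower (-0.24 ± 0.08, adjusted p = 0.041). The Cth call ended under median scaling (adjusted p = 0.15) and without any 1 of 13 arrays. Under quantile normalization its log2 difference became 0.061, which was not a call. Of 8 tested genes of methionine salvage and polyamines, Adi1 was higher (0.67 ± 0.20, adjusted p = 0.016). Odc1, which makes putrescine, was lower (-0.46 ± 0.12, adjusted p = 0.011), as was Mri1 (-0.29 ± 0.09, adjusted p = 0.028, and 0.078 with median scaling). The Mri1 call also ended without any 1 of 7 arrays. None of 3 genes of S-adenosylmethionine sensing and transport passed.

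Methionine omission called 1 of the 37 list genes in wild-type polysome RNA, where 2.58% of all tested genes were called. Lmbrd1, which exports cobalamin from the lysosome and so serves Mtr, rose by 1.08 ± 0.19 on the log2 scale (2 against 2 arrays, adjusted p = 0.0089). Its signal there was 195 ± 12 (SD, n = 2) with methionine and 431 ± 43 without. The call ended under median scaling (0.76, adjusted p = 0.13), with the mean of its probe sets (0.52, 0.12), without replicate 2 with methionine (1.14, 0.054) and without replicate 1 lacking it (0.98, 0.11). In wild-type unfractionated RNA its signal was 342 ± 24 with methionine and 349 ± 49 without. The polysome-specific methionine effect in wild-type called 0 of the 37 list genes and 0% of all tested genes. In knockout the Lmbrd1 signal was 227 ± 25 with and 260 ± 44 without methionine in polysome RNA, and 390 ± 39 and 466 ± 61 in unfractionated RNA. Between fractions Lmbrd1 was lower in polysome RNA (-0.50 ± 0.10, 8 against 8 arrays, adjusted p = 0.00096). Over all arrays 1 of the 37 list genes was higher without methionine and 1 was lower, where 2.93% of all tested genes were called. The higher one was Lmbrd1 again (0.38 ± 0.10, 8 against 8 arrays, adjusted p = 0.042), a call that ended under median scaling (0.24, adjusted p = 0.34), with the mean of its probe sets (0.21, 0.25), with the pool block (0.083) and without any 1 of 15 of the 16 arrays. The lower one was Srm, the spermidine synthase (-0.38 ± 0.10, adjusted p = 0.042). That call ended under median scaling (0.056), under quantile normalization (0.063), with the pool block (0.085) and without any 1 of 13 of the 16 arrays.

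In knockout liver 2 salvage enzymes were lower over all arrays, among 37 list genes tested and against 2.17% of genes called lower. The Kupffer cell marker sum was lower in knockout unfractionated arrays as well, as given above, and its part in these calls was not tested. Mri1, which isomerizes methylthioribose phosphate, was at -0.54 ± 0.09 (8 against 8 arrays, adjusted p = 0.0030), but at -0.32 (adjusted p = 0.27) with the mean of its probe sets and at -0.34 (0.36) in unfractionated arrays alone. Adi1, a dioxygenase later in the same pathway, was at -0.76 ± 0.20 (adjusted p = 0.038, and 0.0495 with the pool block), a call that ended without any 1 of 12 arrays. Without methionine Adi1 was at -1.54 ± 0.28 (4 against 4 arrays, adjusted p = 0.0057), its groups did not overlap and no single array ended the call, but the mean of its probe sets gave -0.74 (0.061). Its unfractionated signal was then 1990 ± 259 (SD, n = 2) in wild-type and 551 ± 82 in knockout, and its polysome signal 2562 ± 38 and 1066 ± 148. With methionine the same signals were 1600 ± 967 and 1501 ± 496, then 2452 ± 1160 and 2510 ± 1112, and the knockout difference was 0.03 ± 0.28 (4 against 4 arrays, 95% interval -0.56 to 0.62, adjusted p = 0.99). The genotype difference of the methionine effect called 0 of the 37 list genes in either fraction, Adi1 among them. It called 0.0458% of all tested genes in unfractionated and 0.055% in polysome RNA. The Adi1 difference was thus not shown to depend on methionine. Sardh, which demethylates sarcosine made by Gnmt, was lower in knockout without methionine (-0.63 ± 0.14, adjusted p = 0.021, and 0.16 with median scaling). The Sardh call also ended without any 1 of 4 arrays.

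The tested genes most like each member over the 16 arrays, by Pearson's r of log2 signal, were as follows. They are a description of arrays that share a scale and may share pools. Mat2b was most like Car8 (0.93), Dguok (0.93) and Rfk (0.92). Bhmt was most like Cyp2e1, Aldh1a1 and Cat, each at 0.92 to 0.93. Gnmt was most like Gpat3 (0.91), Gstp1 (0.91) and Alb (0.90), and Ahcy like Cpsf6 (0.88), Rnf139 (0.87) and Hpd (0.87). Cbs was most like Pgm1 (0.92), Atp6v1a (0.91) and Ctnnb1 (0.90), and Bhmt2 like Pgam1 (0.83), Cpped1 (0.83) and Ppp4r3b (0.81). For Mat1a the closest were Eefsec (0.78), Ints3 (0.77) and Dnmbp (0.76), and for Mtr, below 80 throughout, Sft2d3 (0.85), Steap3 (0.85) and Pidd1 (0.82). Among the members themselves, Gnmt and Ahcy had r = 0.72 and Ahcy and Bhmt 0.73, while Mat2b and Cbs had -0.82.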

How the data were processed

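RNA of mouse livers was measured on 16 one-colour Affymetrix arrays, with genotype, medium and fraction taken from the labels. The authors deposited a linear signal intensity for 45101 probe sets; the algorithm behind it is not stated in the labels or headers. After trimming 2% at each end, the mean was equal in all arrays. The deposited z scores were not used. The number of arrays limits the precision.

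From these intensities, log2(signal + 16) was taken without rescaling, because array medians (18.3 to 27.7) lay among dim probe sets. Symbols came from the platform annotation: 34945 probe sets had 1 symbol and 932 had several, which were left out. Each gene was represented by its brightest probe set on average, and the dimmest 40% of genes were left untested, leaving 10916. A limma model (version 3.58.1, R 4.3.3) of 8 group means with a mean-variance trend gave two-sided tests for 16 comparisons, adjusted by Benjamini-Hochberg over all tested genes, with a threshold of 0.05. The fold changes are on the log2(signal + 16) scale. The test was checked on simulated data with independent arrays. That check held no shared pools and no shift of scale between fractions, so it does not cover them.

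Named genes were the members with all probe sets, the list genes that passed (at most 4 per list and comparison, by p), Eif2ak4 and Asns, and the 3 genes most like each member. Members and lists were chosen with earlier results of these data known. Unfractionated and polysome arrays of one group and number deviated together (r = 0.24, 0.23, 0.33 and 0.19), which is why they were also fitted with the pool as a random block (correlation 0.24). This pairing comes from the data, not the labels. Same-numbered arrays of different media or genotypes correlated at -0.06 to 0.22, so the correlations do not establish shared pools. Replicates are separate pools per the labels.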

Additional observations from a re-analysis of the deposited data

How the results depend on the processing

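In 13 of the 16 comparisons no member was called under any of the alternatives run. Of 114 member values that were called nowhere, 73 changed sign under at least 1 alternative, 38 under median scaling and 29 under quantile normalization. In polysome against unfractionated RNA over all arrays (3 members called), no filter on low values and a fit without the trend each left 1, Mat2b, and the pool block gave 5. In wild-type (1), median scaling, no filter and no trend gave 0, quantile normalization 2 and the pool block 2. In knockout (2), median scaling gave 0, quantile normalization, no filter and no trend 1, and the pool block 4. With single arrays left out the counts ran from 2 to 4, 0 to 1 and 1 to 3. Mat2b over all arrays was called in all 26 alternatives (0.36 to 0.47). Bhmt over all arrays was called in 23 of 26 and Cbs in 11 of 26.

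The Cbs call over all arrays ended without any 1 of 10 arrays (-0.26 to -0.45 over all 16 removals): in wild-type with methionine unfractionated or polysome replicate 2, in wild-type without methionine either unfractionated replicate or polysome replicate 2, in knockout with methionine unfractionated replicate 1 or either polysome replicate, and in knockout without methionine unfractionated replicate 1 or polysome replicate 2. The wild-type Bhmt2 call ended without any 1 of 6 wild-type arrays (0.29 to 0.36), those with methionine other than polysome replicate 2 and those without methionine other than unfractionated replicate 2. The knockout Bhmt call ended without any 1 of 6 knockout arrays (-0.26 to -0.44), all but both replicates 1 without methionine. The sign changed under quantile normalization for Gnmt (0.13), Ahcy (0.0056) and Cth (0.061) over all arrays, and Mat1a ran from -0.019 to 0.12 with single arrays left out. The cause was not tested.

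With the replicate number as a fixed block across all arrays, the members called were 4, 1 and 3 in these 3 comparisons and 0 in the 13 others. Deviations of same-numbered arrays of different media or genotypes correlated at -0.06 to 0.22, not over 0.1 in every pair. The pool block changed no member's call in those 13.

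Counts over all genes ran from 2321 to 4131 (3427 in the fit reported) for polysome against unfractionated RNA, 815 to 2367 (1650) in wild-type, 968 to 3021 (2216) in knockout and 0 to 30 (0) for the genotype difference. For knockout against wild-type they were 113 to 622 (459), 99 to 228 (171) with and 159 to 627 (446) without methionine. For methionine omission they were 0 to 418 (320) over all arrays, 29 to 418 (282) and 1 to 28 (17) in wild-type and knockout polysome RNA, and 0 to 16 (7) and 0 to 1 (0) in unfractionated RNA. The genotype differences of it gave 1 to 76 (6) in polysome and 0 to 10 (5) in unfractionated RNA, and the polysome-specific effects 0 to 27 (0) and 0 to 1 (0). Median scaling turned the split of calls in wild-type polysome RNA from 160 higher and 122 lower to 20 and 226, over all methionine arrays from 247 and 73 to 34 and 45, between genotypes from 222 and 237 to 93 and 189, with methionine from 89 and 82 to 43 and 99, and in wild-type fractions from 861 and 789 to 223 and 592. The small sets went from 13 and 4 to 1 and 0 in knockout polysome RNA and, for the genotype differences of the methionine effect, from 4 and 2 to 4 and 0 in polysome RNA and from 3 and 2 to 3 and 0 (3 and 1 with quantile normalization) in unfractionated RNA.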
